A study of Mus musculus with 2 samples.

Results

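The strands of the microRNAs miR-26, miR-101 and miR-22 were examined in small RNA libraries of mouse liver from a short-term alcohol feeding model. The 8 mature strands were chosen by name, as mmu-miR-26a-5p, mmu-miR-26b-5p, mmu-miR-26b-3p, mmu-miR-101a-3p, mmu-miR-101a-5p, mmu-miR-101b-3p, mmu-miR-22-3p and mmu-miR-22-5p, and are written below without the prefix mmu, for mouse. All 8 were present among the 484 microRNA names of one deposited table, called experiment 1 here, and among the 1915 names of a second table, called experiment 2, where 469 names had a value above 0. The mice were female C57BL/6 wild types, 8 to 10 weeks old, and all had a control liquid Lieber-DeCarli diet for 5 days. The ethanol-fed mice then had the same diet with 5% (v/v) ethanol for 10 days, and the pair-fed mice stayed on control diet matched for calories. A bolus was given by gavage on day 16, of ethanol (6 g/kg) in the first group and of dextrin-maltose with equal calories in the second, 9 h before the liver was collected. The series text speaks of 16 days of ethanol feeding, the feeding protocol of 10. Each table holds 1 pair-fed and 1 ethanol-fed library, and the number of animals behind a library is not given in the sources used here. There is thus no replicate within a table, and each comparison below is between a pair of libraries unless both tables are named as 2 pairs. The paper that reported these data calls its sequencing figure representative of 2 independent experiments. Whether the pairs of libraries come from separate animals is not stated, and the labels list 1 sample per diet.

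A microRNA is cut from a hairpin as a duplex. One strand, the guide, is loaded into an Argonaute protein and pairs with messenger RNAs through its seed, the bases near its 5′ end, while the other strand, the passenger, is mostly lost. The miR-26, miR-101 and miR-22 guides are abundant in normal liver and have been described as falling in liver tumours. miR-26a is known to restrain cyclins of the G1 phase, miR-101 is known to target the histone methyltransferase Ezh2 and the survival factor Mcl1, and miR-22 has been tied to the control of growth and of lipid metabolism. The present tables hold microRNA levels only, so growth itself was not measured.

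The mature sequences are shown because the families differ in their seeds and the paralogs within a family differ by very few bases. Bases 2 to 8, the seed, are in capitals, and the sequences are those of RefSeq (GRCm38.p6), where all 8 strands were found.
miR-26a-5p: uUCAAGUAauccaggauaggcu
miR-26b-5p: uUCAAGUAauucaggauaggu
miR-26b-3p: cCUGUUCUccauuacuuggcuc
miR-101a-3p: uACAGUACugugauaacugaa
miR-101b-3p: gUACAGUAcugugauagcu
miR-101a-5p: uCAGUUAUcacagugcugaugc
miR-22-3p: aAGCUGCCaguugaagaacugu
miR-22-5p: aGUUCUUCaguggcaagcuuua

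Both miR-26 guides carried the seed UCAAGUA, which no other name of the tables with a RefSeq sequence shared. They differed by C11U and C21U over 21 aligned bases, with the miR-26a-5p base first and positions counted from 1 at its 5′ end. As listed in RefSeq, miR-101b-3p begins 1 base before miR-101a-3p, so that bases 2 to 8 read UACAGUA in one and ACAGUAC in the other although the stretch is the same. Aligned from the first base of miR-101a-3p, the pair had 17 of 18 bases in common and differed by A16G. Reads of paralogs this alike could be split differently by another counting method, and the method used is not given in the sources used here. The seed of miR-22-3p, AGCUGCC, and that of miR-22-5p, GUUCUUC, were each found in 1 name only.

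The strands come from 6 hairpin genes on 6 chromosomes (GRCm38.p6, with genes of GENCODE M21). miR-26a-5p is encoded in identical form by Mir26a-1 (chr9:119031811-119031832, plus strand), in an intron of Ctdspl, and by Mir26a-2 (chr10:126995543-126995564, plus strand), which lies within Ctdsp2 and overlaps an exon in 2 of its 3 transcripts there. Mir26b lies in an intron of Ctdsp1, with miR-26b-5p at chr1:74394324-74394344 on the plus strand. The 3 host genes encode small phosphatases of the tail of RNA polymerase II, and both the microRNAs and the hosts are thus paralogs. Mir101a overlaps an exon of the long noncoding RNA E130102H24Rik, with miR-101a-3p at chr4:101346957-101346977 on the minus strand. Mir101b is in an intron of Rcl1, a gene of ribosomal RNA processing, with miR-101b-3p at chr19:29135338-29135356 on the plus strand. Mir22 is exonic in its noncoding host Mir22hg, with miR-22-3p at chr11:75463772-75463793 on the plus strand, and also overlaps an exon of 1 transcript of Tlcd2.

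Experiment 1 was deposited as reads, with 4170601 microRNA reads for the pair-fed and 4311802 for the ethanol-fed library. Experiment 2 was deposited as RPM, reads per 1000000 reads on microRNAs, in which the low values rise in steps of about 0.0925 RPM (pair-fed) and 0.0924 RPM (ethanol-fed). These steps were taken as 1 read, which puts the totals near 10812564 and 10820754 reads. Values listed at 0 in experiment 2 can stand for up to almost 0.92 RPM, the lowest value above 0. The 4 hepatocyte microRNAs looked for (miR-122-5p, miR-192-5p, miR-194-5p and miR-802-5p) were detected in all 4 libraries. Intervals in brackets are 95% intervals (exact Clopper-Pearson for levels and folds) and cover the counting error of reads only. They leave out the spread between animals and between libraries. PCR copies were not told apart, so the intervals can be too narrow even for counting.

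The order of the levels differed between the tables. Pair-fed liver of experiment 1 was led by miR-22-3p with 26328 RPM (26174 to 26482), or 2.63% of the reads, the 7th most abundant microRNA. It was followed by miR-26a-5p with 5542 RPM, miR-101b-3p with 4492 RPM, miR-101a-3p with 2080 RPM and miR-26b-5p with 533 RPM. The counting intervals of these 5 guides did not touch. The passenger strands stood far below, at 15.1 RPM for miR-26b-3p, 3.36 RPM for miR-101a-5p and 2.88 RPM for miR-22-5p, and the last of these could not be ordered against miR-101a-5p, since their intervals overlap.

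Pair-fed liver of experiment 2 was led by miR-26a-5p with 48312 RPM (48184 to 48440), or 4.83% of the reads, which ranked 6th. miR-101b-3p had 21710 RPM, miR-101a-3p 8281 RPM, miR-22-3p 5513 RPM and miR-26b-5p 4572 RPM. The miR-26 and miR-101 guides thus stood above miR-22-3p here, apart from miR-26b-5p. Of the passenger strands, miR-22-5p had 195 RPM, miR-26b-3p 8.32 RPM and miR-101a-5p 0.92 RPM.

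The tables were made separately, and levels set across them can differ through their making. The pair-fed level of experiment 2 over that of experiment 1 was 8.72 for miR-26a-5p, 8.57 for miR-26b-5p, 4.83 for miR-101b-3p and 3.98 for miR-101a-3p. Paralogs of one family thus shifted by a like amount. miR-22-3p went the other way and was 4.78 times as high in experiment 1, while its passenger miR-22-5p was 67.7 times as high in experiment 2. The value for miR-22-5p rests on 12 pair-fed reads in experiment 1. The cause of these shifts was not tested.

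**Figure D1:**
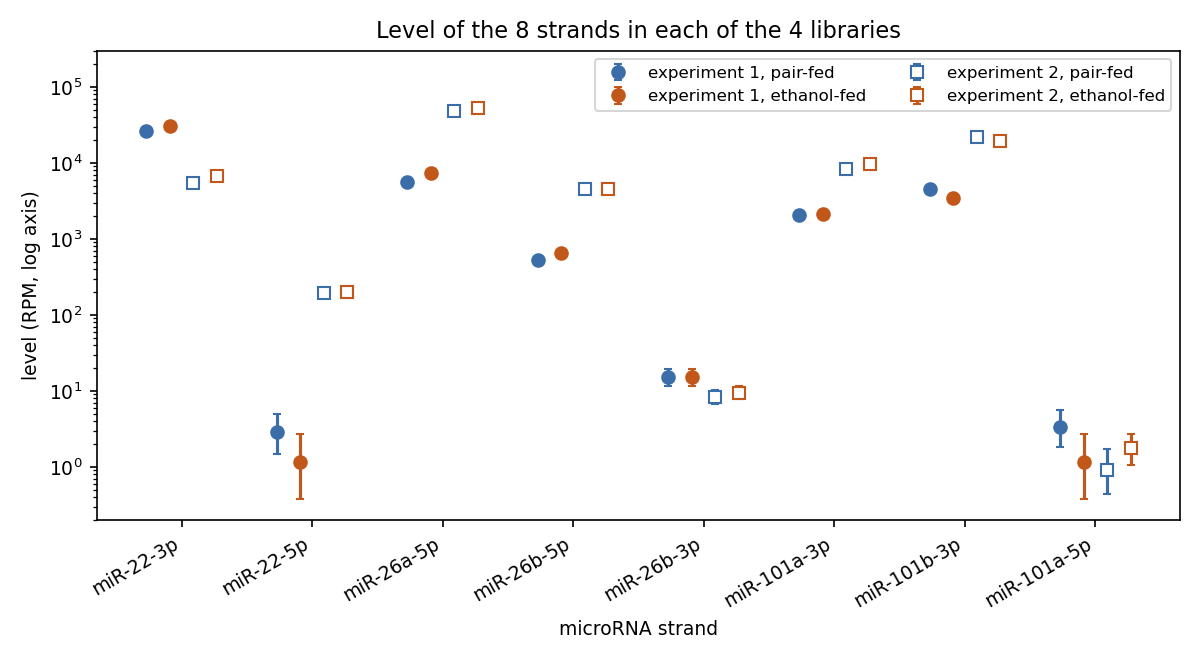
Level of each of the 8 strands in RPM (log axis) in the pair-fed (blue) and ethanol-fed (orange) libraries of experiment 1 (filled circles) and experiment 2 (open squares), with 95% counting intervals. The 5 guides lie between 533 and 53090 RPM, and the distance between the experiments exceeds that between the diets for each guide.

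The comparison of ethanol-fed with pair-fed liver asks how the strands differ after alcohol. Below, a log2 ratio is that of the RPM of the ethanol-fed library to the RPM of the pair-fed library with 1 read added to each, and a fold is without the added read. miR-26a-5p, miR-22-3p and miR-101a-3p were higher in the ethanol-fed library of both experiments, miR-101b-3p was lower in both, and miR-26b-5p was higher in experiment 1 and within counting error in experiment 2. Of the guides, 0 of 5 reached 1.5-fold in either table. Among all microRNAs with at least 1000 reads in the pair of libraries, 14.6% of 82 in experiment 1 were at least 1.5-fold apart, 6.1% higher and 8.54% lower in ethanol-fed liver. The share in experiment 2 was 18.5% of 151, with 8.61% higher and 9.93% lower.

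miR-26a-5p had 23115 pair-fed and 32115 ethanol-fed reads in experiment 1, 5542 and 7448 RPM, which is 1.34-fold higher (1.32 to 1.37, log2 ratio 0.43). In experiment 2 it had 48312 and 53090 RPM, 1.10-fold higher (1.09 to 1.10, log2 ratio 0.14). In both tables the difference exceeded counting error, and the strand was the 19th most abundant microRNA in pair-fed and the 14th in ethanol-fed liver of experiment 1. By the size of its log2 ratio, it ranked 24th of the 82 abundant microRNAs in experiment 1 and 107th of the 151 in experiment 2.

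miR-26b-5p, the less abundant paralog with the same seed, had 2224 and 2789 reads in experiment 1, 1.21-fold higher in the ethanol-fed library (1.15 to 1.28, log2 ratio 0.28). In experiment 2 it had 4572 and 4554 RPM, a fold of 0.996 (0.984 to 1.009). The libraries of experiment 2 were therefore not told apart for this strand at a depth of about 49440 and 49282 reads. As miR-26a-5p makes up most of the family, the sum of both guides was 0.608% of the pair-fed and 0.809% of the ethanol-fed reads in experiment 1, and 5.29% and 5.76% in experiment 2.

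miR-22-3p had 109803 and 131015 reads in experiment 1, 1.15-fold higher in the ethanol-fed library (1.14 to 1.16, log2 ratio 0.21). In experiment 2 it had 5513 and 6642 RPM, 1.20-fold higher (1.19 to 1.22, log2 ratio 0.27). The difference was thus of a like size in both tables although the level of the strand was not.

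miR-101b-3p was the one guide lower in both ethanol-fed libraries. It had 18736 pair-fed and 14908 ethanol-fed reads in experiment 1, a fold of 0.770 (0.753 to 0.786, log2 ratio -0.38). In experiment 2 it had 21710 and 19637 RPM, a fold of 0.905 (0.899 to 0.910, log2 ratio -0.14). Its paralog miR-101a-3p went the other way, with 8676 and 9260 reads in experiment 1 (fold 1.03, 1.00 to 1.06, log2 ratio 0.05) and 8281 and 9605 RPM in experiment 2 (fold 1.16, 1.15 to 1.17, log2 ratio 0.21). In experiment 1 the libraries were thus barely told apart for miR-101a-3p. The family sum hid opposite differences, at 0.657% of the pair-fed and 0.561% of the ethanol-fed reads in experiment 1 and at 3.0% and 2.92% in experiment 2.

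**Figure D2:**
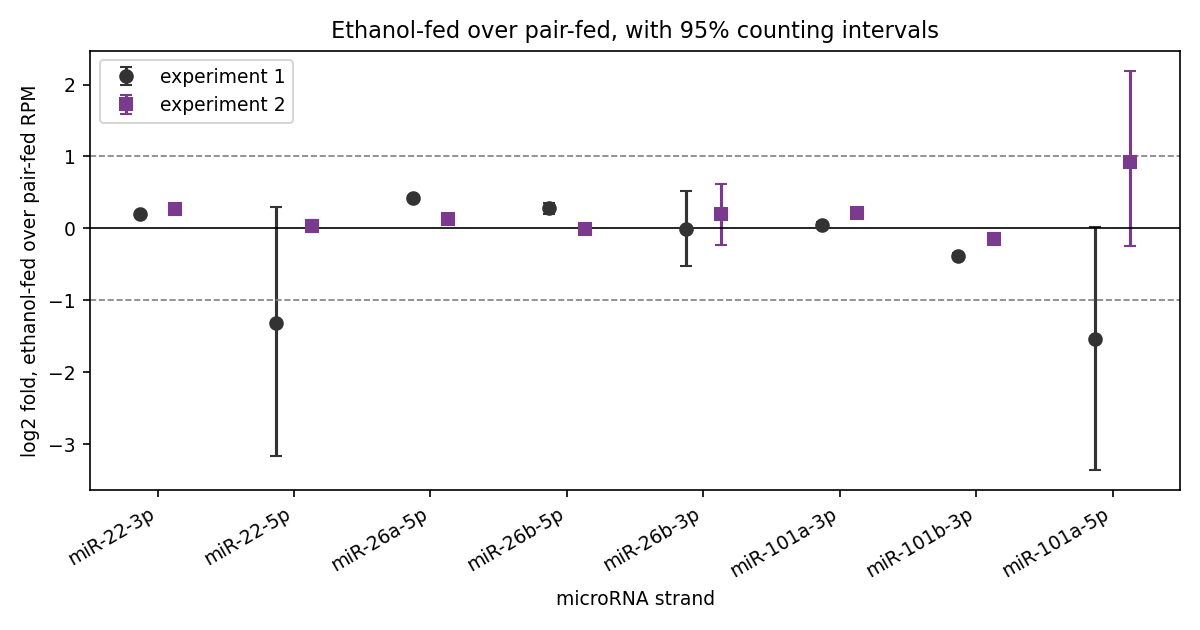
Log2 fold of ethanol-fed to pair-fed RPM, without an added read, for the 8 strands in experiment 1 (circles) and experiment 2 (squares), with 95% counting intervals and dashed lines at 2-fold. The guides lie within 1.5-fold of no change with narrow intervals, whereas miR-101a-5p, miR-22-5p in experiment 1 and miR-26b-3p have wide intervals that include 0.

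With the tables taken as 2 pairs, the mean log2 ratio was 0.28 ± 0.21 (SD, n = 2) for miR-26a-5p and 0.14 ± 0.20 for miR-26b-5p. It was 0.24 ± 0.04 for miR-22-3p, 0.13 ± 0.12 for miR-101a-3p and -0.26 ± 0.16 for miR-101b-3p. The spread between the pairs was thus smallest for miR-22-3p among the 5 guides, and larger than the mean for miR-26b-5p. A two-sided exact sign-flip permutation test over the 2 pairs cannot go below p = 0.5, which it gave for the 4 strands with 1 direction in both tables. No strand could therefore pass a threshold of 0.05.

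The passenger strands were too rare for firm comparison in most libraries. miR-101a-5p had 14 and 5 reads in experiment 1 (fold 0.345, 0.0974 to 1.015) and 0.92 and 1.76 RPM, about 10 and 19 reads, in experiment 2 (fold 1.90, 0.840 to 4.57). miR-22-5p had 12 and 5 reads in experiment 1 (fold 0.403, 0.111 to 1.23), and 195 and 199 RPM in experiment 2 (fold 1.02, 0.964 to 1.09). miR-26b-3p had 63 and 65 reads in experiment 1 (fold 0.998, 0.695 to 1.43) and 8.32 and 9.52 RPM in experiment 2 (fold 1.14, 0.853 to 1.53). Each of these 6 intervals includes 1. That of miR-22-5p in experiment 2, from about 2105 and 2157 reads, is narrow and close to no difference. The others are wide, so only a large difference could have been detected at their depth. With the added read, miR-101a-5p (log2 ratio -1.37) and miR-22-5p (-1.16) of experiment 1 were the only members counted as at least 2-fold apart, both lower. Of 302 microRNAs that had 10 or more reads in the pair of libraries of experiment 1, 12.9% were at least 2-fold lower and 25.5% at least 2-fold apart. In experiment 2, 0 of the 8 members were at least 2-fold apart, against 25.8% of 469 microRNAs, 10.7% higher and 15.1% lower. Of these 469, 31 were listed at 0 for pair-fed liver only and 36 for ethanol-fed liver only. The added read puts each such name past 2-fold, and no member was listed at 0. The share of 25.8% is therefore not a like measure for the members. The median log2 ratio of the 8 members was 0.02 in experiment 1 and 0.16 in experiment 2, beside -0.01 and 0.0026 over all microRNAs tested.

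Ratios of strands within a library do not depend on how the library is scaled. The ratio of miR-26a-5p to miR-26b-5p was 10.4 (9.95 to 10.9) in pair-fed and 11.5 (11.1 to 12.0) in ethanol-fed liver of experiment 1. The ratio in experiment 2 was 10.6 (10.5 to 10.7) and 11.7 (11.6 to 11.8). The balance of the miR-26 paralogs was thus nearly the same in both pair-fed libraries, although the level of the family differed more than 8-fold between the tables. The ratio in the ethanol-fed library was 1.11 times that in the pair-fed library in experiment 1 (1.05 to 1.17) and 1.10 times in experiment 2 (1.09 to 1.12).

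The ratio of miR-101b-3p to miR-101a-3p was 2.16 (2.11 to 2.22) in pair-fed and 1.61 (1.57 to 1.65) in ethanol-fed liver of experiment 1. It was 2.62 (2.60 to 2.64) and 2.04 (2.03 to 2.06) in experiment 2. The ethanol-fed libraries thus held less miR-101b-3p per miR-101a-3p in both tables, at 0.746 (0.719 to 0.773) and 0.780 (0.772 to 0.788) of the pair-fed ratio. These differences exceed counting error, but there is 1 library per diet in each table, and whether they exceed the spread between animals cannot be said.

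The balance of guide and passenger differed most between the tables. In experiment 1, miR-22-3p had 9150 times the reads of miR-22-5p in pair-fed liver (5238 to 17709) and 26203 times in ethanol-fed liver (11228 to 80701). These ratios rest on 12 and 5 passenger reads. In experiment 2, miR-22-3p had only 28.3 and 33.3 times the reads of miR-22-5p. For miR-26b the order was the opposite, with 35.3 and 42.9 times as many guide as passenger reads in experiment 1 and 549 and 478 times in experiment 2. miR-101a-3p had 620 and 1852 times the reads of miR-101a-5p in experiment 1 and 8954 and 5470 times in experiment 2. The ratios of experiment 2 rest on about 10 and 19 passenger reads. No single direction thus described the passenger strands of the 3 hairpins. Between the diets, the ethanol-fed strand ratio was 1.18 times the pair-fed one (1.11 to 1.25) for miR-22 in experiment 2, and 2.99 times (1.02 to 10.6) for miR-101a in experiment 1, which rests on 14 and 5 passenger reads. The other intervals, for miR-26b in both tables, miR-101a in experiment 2 and miR-22 in experiment 1, include 1.

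**Figure D3:**
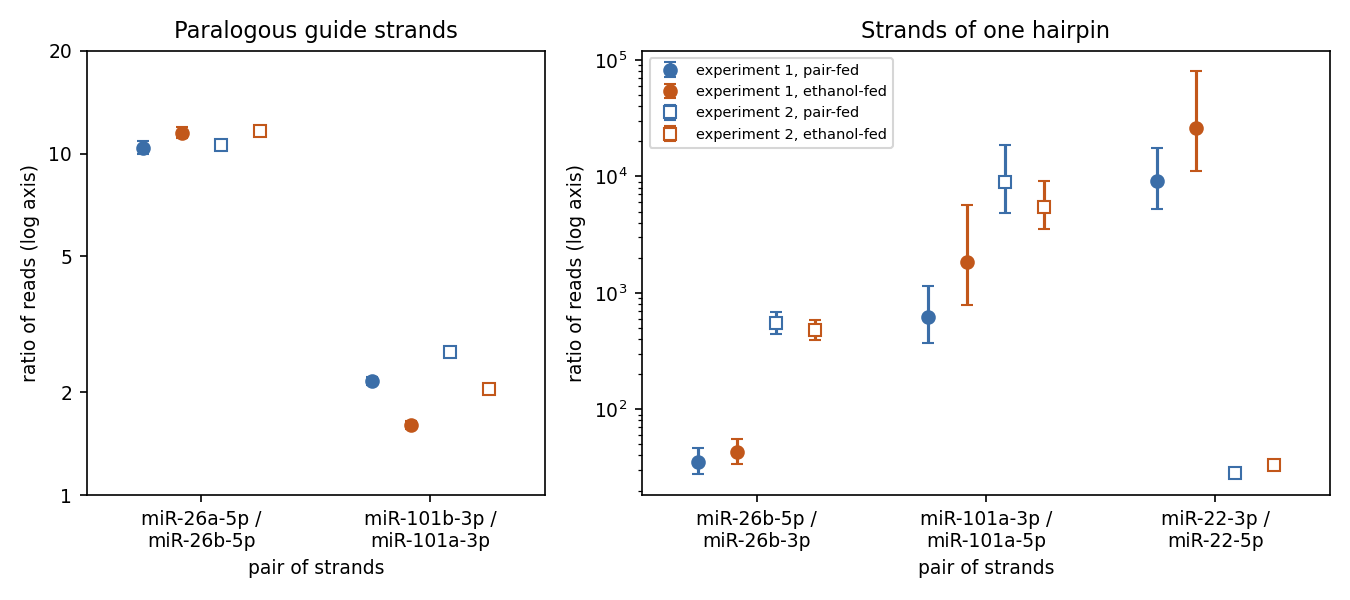
Ratio of reads (log axis) of paralogous guides (left) and of guide over passenger strand of one hairpin (right) in each library, colours and symbols by diet and experiment, with 95% counting intervals. The miR-26a-5p to miR-26b-5p ratio lies between 10.4 and 11.7 in all 4 libraries, whereas the miR-22 strand ratio differs by orders of magnitude between the experiments.

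The other products of these hairpins and a near copy were read as well. miR-26a-1-3p is listed at 0 in both libraries of experiment 2 and is not a name of experiment 1, while miR-26a-2-3p had 0 and 3 reads in experiment 1 and 7.12 and 7.49 RPM in experiment 2 (fold 1.05, 0.760 to 1.46). Passenger reads of miR-26a were thus listed for Mir26a-2 only, whereas the guide reads cannot be divided between the genes. miR-101b-5p had 80 and 39 reads in experiment 1, a fold of 0.472 (0.313 to 0.700), in the same direction as miR-101b-3p of the same hairpin there, and is listed at 0 in both libraries of experiment 2.

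miR-101c is a 19-base name whose sequence is contained in miR-101a-3p. It had 11 and 9 reads in experiment 1, which is 0.127% and 0.0972% of the miR-101a-3p reads. Experiment 2 lists it at 8417 and 9760 RPM, 101.6% of the miR-101a-3p value in each library. Of the pairs of names in which one sequence is identical to or contained in the other and 1 had at least 10 pair-fed reads, 6 of 6 in experiment 2 had pair-fed values within 0.9 to 1.1 of each other, and 2 of 3 in experiment 1, the exception being miR-101c. The RPM of miR-101a-3p and of miR-101c in experiment 2 can therefore not be added as if they were separate reads.

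The guides were set beside 23 other microRNAs described as growth suppressing in liver, among them let-7, miR-29, miR-34a, miR-122 and miR-125b. Of these, 14 were higher and 9 lower in the ethanol-fed library of experiment 1, and 11 were higher and 12 lower in experiment 2. The median log2 ratio was 0.13 in experiment 1 and -0.0019 in experiment 2, beside -0.01 and 0.0026 over all microRNAs tested, so the list stood close to the rest. In experiment 1, 2 of the 23 (miR-145a-5p and miR-214-3p) were at least 2-fold higher, against 12.6% of all microRNAs tested, and 0 were at least 2-fold lower, against 12.9%. In experiment 2, 0 were at least 2-fold higher, against 10.7%, and 1 (miR-34a-5p) was at least 2-fold lower, against 15.1%. The shares of experiment 2 include names listed at 0 in 1 library, and no name of the list was at 0. The most abundant was miR-192-5p in experiment 1, with 388161 and 373090 RPM, and miR-148a-3p in experiment 2, with 185558 and 187898 RPM. The largest differences among those with at least 100 reads were in miR-145a-5p (28.5 and 59.4 RPM) and miR-100-5p (1665 and 1011 RPM) in experiment 1. In experiment 2 they were in miR-34a-5p, a target of p53, with 119 and 44.5 RPM (fold 0.372, 0.334 to 0.413), and in miR-152-3p, with 1733 and 2250 RPM. The list shares miR-122-5p, miR-192-5p and miR-194-5p with the hepatocyte markers and miR-145a-5p, miR-199a-3p and miR-214-3p with the mesenchyme markers below.

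Over the 2 log2 ratios, the microRNAs nearest to each of 3 guides were named among 72 others with at least 1000 reads in the pair of libraries of both tables. Nearest to miR-26a-5p were miR-126a-5p (0.43 in experiment 1 and 0.16 in experiment 2), miR-199a-3p (0.37 and 0.07) and miR-199b-3p (0.37 and 0.07). The miR-199 names had equal log2 ratios in experiment 2 and nearly equal ones in experiment 1, so they cannot be read as separate likenesses. Nearest to miR-101b-3p were miR-125b-5p (-0.39 and -0.13), miR-122-5p (-0.43 and -0.22) and miR-30c-2-3p (-0.30 and -0.02). Nearest to miR-22-3p were miR-126a-3p (0.25 and 0.24), miR-130a-3p (0.21 and 0.21) and miR-98-5p (0.12 and 0.29). miR-126a is a microRNA of endothelium, and miR-122-5p is the leading hepatocyte microRNA. The likeness rests on 2 values each. Among all 77 microRNAs at this depth, 53.2% had the same direction in both tables.

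**Figure D4:**
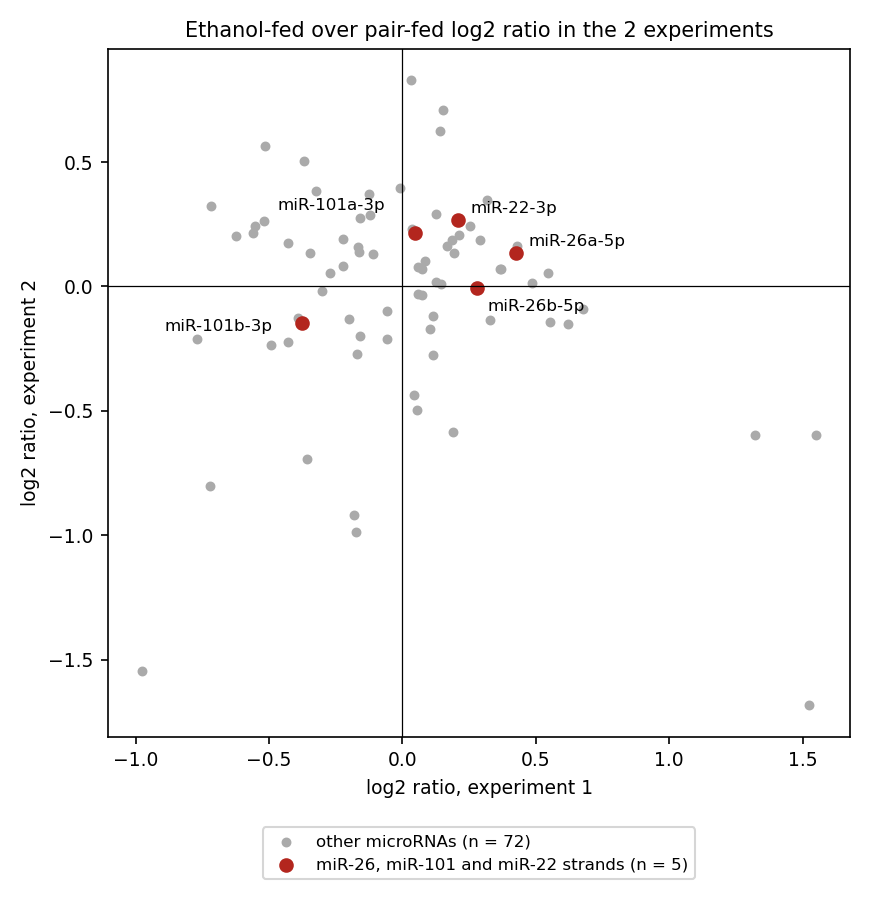
Log2 ratio of ethanol-fed to pair-fed RPM in experiment 1 (horizontal) and experiment 2 (vertical) for 77 microRNAs that had 1000 or more reads in the pair of libraries of both. The 5 guides (red) lie within the cloud of the 72 others (grey), with miR-26a-5p, miR-22-3p and miR-101a-3p at upper right and miR-101b-3p at lower left.

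Markers of other cells moved between the same libraries. The 4 red cell markers were all higher in the ethanol-fed library of experiment 1, with a summed level of 11559 and 33915 RPM, and all lower in experiment 2, with 1826 and 1152 RPM. The 4 white cell markers were all lower in both, from 404 to 335 RPM and from 872 to 463 RPM, and the 2 endothelium markers were higher in both, from 3854 to 5142 RPM and from 22335 to 26332 RPM. The 4 mesenchyme markers summed to 96518 and 96073 RPM in experiment 1, with 3 of 4 higher, and to 18978 and 24067 RPM in experiment 2, with 2 of 4 higher. The 4 pancreas markers summed to 85.1 and 48.5 RPM in experiment 1, with 3 at 0 or not listed in pair-fed and 2 in ethanol-fed liver, and to 5.92 and 113 RPM in experiment 2, with miR-216a-5p and miR-216b-5p at 0 in the pair-fed library. The hepatocyte markers summed to 392402 and 376642 RPM in experiment 1 and to 324136 and 291554 RPM in experiment 2, with 2 of 4 higher and 2 lower in each. Several sums of experiment 1 were nearly all 1 strand. In its pair-fed library miR-192-5p alone had 388161 RPM, miR-486a-5p of the red cell markers 11512 RPM and miR-143-3p of the mesenchyme markers 96276 RPM. miR-194-5p (log2 ratio 0.07 and 0.07) and miR-802-5p (0.15 and 0.71) were higher in both tables, miR-192-5p (-0.06 and -0.10) and miR-122-5p lower. miR-122-5p had 2971 and 2210 RPM in experiment 1 but 182938 and 156660 RPM in experiment 2. The part of these differences in those of the miR-26, miR-101 and miR-22 strands was not tested, and in whole liver fewer cells of a type and less of its RNA per cell cannot be told apart.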

How the data were processed

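Total RNA of whole liver was size-fractionated by gel electrophoresis, amplified by RT-PCR and sequenced on a HiSeq 2500, while the labels name a TruSeq RNA kit for the libraries. The authors deposited read counts per mature microRNA without normalization for experiment 1, and RPM with 2 decimals for experiment 2. The submitters' processing notes name the mouse build mm8. Aligner, counting and filters are not given in the sources used here. The authors' fold change and p-value columns of experiment 2, which compare its libraries, were not used, nor were its repeated columns. The columns were assigned to diets by their names.

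The read worth assumed for experiment 2 is the step that made 95.3% of 296 pair-fed and 95.9% of 291 ethanol-fed values under 60 RPM whole multiples within 0.0051 RPM. The log2 ratio used a pseudocount of 1 read and was computed for microRNAs with at least 10 reads in the pair of libraries. The pseudocount understates the change of rare strands above 0 in both libraries. In experiment 2 the log2 ratio can overstate the change of names listed at 0 in 1 library, since a 0 can stand for up to almost 0.92 RPM. In experiment 1, 0 reads leave room for 0.719 RPM (pair-fed) and 0.696 RPM (ethanol-fed), the worth of 3 reads. Folds have exact conditional intervals. Intervals of a ratio of ratios were exact where a strand had under 200 reads and otherwise taken on the log scale. The 2-fold calls (with median-of-ratios scaling) and the fold intervals were tested on simulated data. The log2 ratios of both tables were also averaged as 2 pairs, with an exact sign-flip test. Members and lists were chosen with earlier results of these data known. Named in the text were all 8 members, the other strands of their hairpins, the most abundant member of each growth list and its 2 largest log2 ratios among those with at least 100 reads, and the 3 microRNAs nearest to miR-26a-5p, miR-101b-3p and miR-22-3p. Of 1915 names, 1623 (84.8%) matched a RefSeq mature sequence. Values were computed with scipy 1.17.1, pandas 2.3.3 and numpy 2.4.6 under Python 3.11.15, and plotted with matplotlib 3.10.9.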

Additional observations from a re-analysis of the deposited data

Results flagged for a closer look

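Of the 8 strands, 4 had log2 ratios of opposite sign in the 2 experiments, and the difference between the experiments was not tested, as each has 1 library per diet. miR-101a-5p had -1.37 in experiment 1 and 0.86 in experiment 2, and miR-22-5p had -1.16 and 0.034. miR-26b-5p had 0.28 and -0.0057, and miR-26b-3p had -0.0036 and 0.19. In each of these pairs, at least 1 counting interval includes no difference. Opposite signs were also common elsewhere. They were found for 36 of the 77 abundant names compared across both tables, and 1 of the 5 guides is among these 36. The passenger strands were too rare to enter that set, so its share does not cover them.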

How the results depend on the processing

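Counts and ratios were recomputed with other scalings, pseudocounts and minimums. In experiment 1, the summed log2 ratio of the miR-26 guides, 0.41, was 0.45 with median-of-ratios size factors, 0.38 when miR-192-5p, the leading name, did not count towards the total and 0.46 with unscaled reads. That of the miR-101 guides, -0.23, was -0.20, -0.26 and -0.18, and that of miR-22-3p, 0.21, was 0.24, 0.17 and 0.25. In experiment 2, median-of-ratios size factors moved the miR-26 sum from 0.12 to 0.11 and the miR-101 sum from -0.036 to -0.049. Adding miR-101c to the miR-101 sum of experiment 2, an alternative chosen after seeing the data, turned it to 0.022, since miR-101c carries nearly the values of miR-101a-3p. The 2 members at least 2-fold apart in experiment 1 became 0 with a minimum of 100 reads, and the members at least 1.5-fold apart, 0 in both tables, became 2 in experiment 1 and 1 in experiment 2 with a minimum of 10 reads, because rare strands left or entered. For the same reason, the 2 growth suppressing microRNAs past 2-fold in experiment 1 became 1 with a minimum of 100 reads. Of 64 recomputed log2 ratios of single members, 52 stayed within counting error. Of these, 2, both of miR-26b-3p in experiment 1, changed sign, to 0.03 by median-of-ratios scaling and 0.04 with unscaled reads. The rest, 10 in experiment 1 and 2 in experiment 2, were all of abundant guides under another scaling. In experiment 1, every other scaling moved miR-26a-5p, miR-101b-3p and miR-22-3p past counting error. For these guides the choice of scaling thus mattered more than counting error. The test over the tables as 2 pairs was added after seeing the data, and 2 pairs are too few for it to pass a threshold.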

Other observations

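Of 18 microRNAs described as growth promoting (such as miR-21a-5p, the miR-17 to miR-92a group and the miR-183 to miR-182 group), 15 had at least 10 reads in experiment 1, where 5 were higher and 10 lower in the ethanol-fed library. All 18 did in experiment 2, where 3 were higher and 15 lower. Over all microRNAs tested, 147 were higher and 155 lower in experiment 1, and 236 higher and 233 lower in experiment 2. The median log2 ratio of the list was -0.15 and -0.45, beside -0.01 and 0.0026 over all microRNAs tested. At least 2-fold lower were 1 in experiment 1, against 12.9% of all tested, and 3 in experiment 2, against 15.1%. The share of experiment 2 includes names listed at 0 in the ethanol-fed library, and no name of the list was at 0 there. miR-182-5p had 8265 and 4203 RPM in experiment 1 and 125 and 42.9 RPM in experiment 2, lower in both ethanol-fed libraries. miR-183-5p had 161 and 77.0 RPM in experiment 1, and miR-96-5p had 14.8 and 5.27 RPM in experiment 2. These 3 come from one cluster of genes and are not independent. The miR-17 to miR-92a group, and miR-25-3p, miR-93-5p and miR-106b-5p, also come from clusters and were all lower in experiment 2. In experiment 1, miR-92a-3p, miR-25-3p, miR-93-5p and miR-106b-5p were higher. The counts of higher and lower names are therefore not counts of independent names. The most abundant of the list, miR-21a-5p, had 14828 and 16038 RPM in experiment 1 and 57661 and 53062 RPM in experiment 2, opposite directions that were not tested.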
